A study of Mus musculus with 12 samples.

Results

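The data addressed how the loss of Keap1 altered the transcriptional response of mouse bone marrow-derived macrophages (BMDMs) to M1 stimulation. The measure was the response difference, which is the M1 response of Keap1-deficient cells less the M1 response of wild-type cells of the same culture, on the log2 scale. Its values came from 8 of the 12 arrays of the series and from the 17507 of 32301 genes or transcripts whose signal was well above background on all 8. WT BMDMs came from C57BL/6 mice. KpCKO BMDMs came from C57BL/6 mice with the Keap1 flox/flox::LysM-Cre genotype, in which Cre is driven from the lysozyme M locus of myeloid cells, so that bone marrow outside that lineage is not targeted. Whether the WT mice carried Cre or floxed alleles was not given in the sources used here. All mice were 8 weeks old, and marrow cells were grown for 7 days with M-CSF. Con cells were left untreated and M1 cells received LPS and IFNγ for 6 h. The other 4 arrays were of WT and KpCKO cells given IL-4 for 6 h (M2), on a slide of their own that was scanned on another day. They enter no value but share the estimate of the spread and the choice of the probe that stands for a gene. Without them in the fit no response difference was called. Each group held 2 arrays, 1 from each of 2 independent cultures. Each culture paired 1 WT mouse with 1 KpCKO mouse, which were male in culture 1 and female in culture 2.

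Keap1 is the adaptor through which the transcription factor Nrf2 is bound and handed to a ubiquitin ligase for degradation, so cells without Keap1 accumulate Nrf2 and express antioxidant, detoxification and NADPH-producing genes. LPS acts through Toll-like receptor 4 to activate NF-κB and AP-1 and, through induced interferon β, the type I interferon genes. IFNγ acts through its own receptor and JAK kinases on antigen presentation genes and guanylate-binding proteins. A genotype effect on a stimulated gene can therefore be present before the stimulus and persist, or appear as a larger or smaller response to it, and the difference measured in M1 cells is the sum of both.

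Levels are given as log2 intensity relative to the 75th percentile of the array, so that 1 unit is a 2-fold difference. *Keap1* checked the genotype labels. Its levels were 3.26 and 3.16 in WT Con, 1.79 and 1.71 in KpCKO Con, 4.28 and 4.80 in WT M1, and 2.61 and 3.04 in KpCKO M1, each pair being culture 1 and culture 2. The KpCKO arrays were below the WT arrays of the same treatment in both cultures, and *Keap1* rose with M1 stimulation in both genotypes. The *Keap1* response difference was -0.26 ± 0.32 (SE of the fit, n = 2 cultures, limma adjusted p = 0.689).

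The 75th percentile of intensity was 1000.5 to 1143.4 on the Con arrays. WT M1 arrays had 757.1 and 547.7 and KpCKO M1 arrays 906.0 and 786.6, so the WT M1 arrays were the dimmer ones in both cultures. The 4 Con arrays lay on 1 slide and the 4 M1 arrays on another, so the M1 response of a genotype cannot be told apart from the slide, whereas both genotypes shared each slide. The WT M1 array of culture 2 held a patch of 298 neighbouring spots that were dim relative to the WT M1 array of culture 1, and no such spot was found on arrays of the other groups. Of the genes tested, 187 are read from that patch. Of 82 genes with a response difference above 2 in culture 2 and within 1 of 0 in culture 1, 74 are read from it, so values of culture 1 are given for patch genes named here. No called response difference was in the patch. In bulk RNA, a lower level in fewer cells and a lower level per cell cannot be told apart.

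Both genotypes responded to M1 stimulation along similar lines, with a smaller response in KpCKO BMDMs. In WT, 7008 genes rose (40% of those tested, limma) and 5361 fell (30.6%), and in KpCKO 5324 rose (30.4%) and 4814 fell (27.5%). Across genes, the WT and KpCKO responses correlated at r = 0.945, and the slope of the KpCKO response on the WT response was 0.796. Genes are not independent replicates, so no test is attached to these values. The slope was 0.768 in culture 1 and 0.797 in culture 2, 0.804 under quantile normalization and 0.799 after normexp background correction. The reverse slope, of WT on KpCKO, was 1.12. The part of the lower intensity of the WT M1 arrays in these values was not tested. The WT response had an SD over genes of 1.43 and the KpCKO response of 1.20. Among the 2797 genes that rose more than 2-fold in both WT cultures, the median response was 1.84 in WT and 1.40 in KpCKO. Among the 2412 genes that fell more than 2-fold in both, it was -1.74 in WT and -1.37 in KpCKO. Because these genes were picked on the WT response, the choice was also made on KpCKO. For the 1855 genes that rose in both KpCKO cultures the medians were then 2.28 in WT and 1.93 in KpCKO, and for the 1672 that fell they were -2.01 and -1.67. The smaller KpCKO response was thus present whichever genotype picked the genes.

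**Figure D1:**
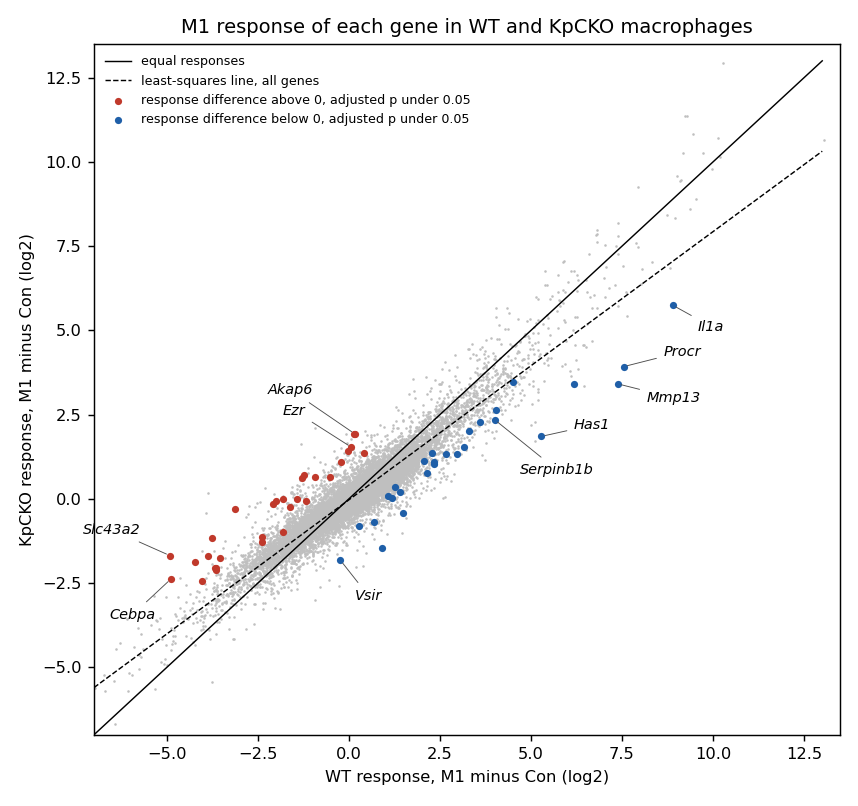
The M1 response of each of the 17507 genes in WT (x axis) and KpCKO BMDMs (y axis), as the mean log2 change of 2 cultures. Coloured points are the 57 genes called (30 higher and 27 lower in KpCKO), the solid line marks equal responses and the dashed line is the fit over all genes with a slope of 0.796. In 47 of the 57 the KpCKO response is the smaller in size, which the choice of genes by the response difference favours.

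A response difference was called for 57 genes (limma, adjusted p under 0.05), 30 of them higher in KpCKO, which is 0.171% of the genes tested, and 27 lower, which is 0.154%. Under quantile normalization 23 were higher and 10 lower. All 57 had the same sign in both cultures, but a test on these 2 cultures favours such genes, so this is no separate support. Their sizes ran from 0.802 to 3.97 with a median of 1.58. In 47 of the 57 the response was smaller in size in KpCKO than in WT. Of the 30 called higher, 24 fell with M1 stimulation in WT. Of the 27 called lower, 26 rose in WT. The WT response enters the response difference with a minus sign. Genes chosen by that difference therefore tend toward these directions and toward a smaller KpCKO response, so these counts are a description. In 8 of the 57, both responses were called and ran in opposite directions.

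The number of calls depended on the fit. Without the culture term 7 genes were called (4 higher and 3 lower), and when only the 8 arrays were fitted none was, although 2812 genes were under an unadjusted p of 0.05. After normexp background correction none was called either, with 1850 under that p. Leaving out 1 array at a time gave 0 to 702 calls. Each setting left the direction of all the 57 genes it tested as it was. The choice of genes with the same sign in both cultures favours this, so it is no separate support.

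A plain 2-fold rule, without a test, found more genes. The response difference was above 1 in both cultures for 170 genes (0.971% of those tested) and below -1 in both for 243 (1.39%). Under quantile normalization these were 192 and 177, and with normexp 65 and 168. Of the 243 lower, 195 had risen more than 2-fold in both WT cultures, with a median response of 3.28 in WT and 1.73 in KpCKO, and 18 of these were among the genes called. Of the 170 higher, 109 had fallen more than 2-fold in both WT cultures, with medians of -2.87 and -1.56, and 20 were called. A smaller KpCKO response is nearly fixed by this choice of genes, so these counts are a description. A further 17 genes rose in WT and rose more in KpCKO, with medians of 4.04 and 5.40. None of the 17 was called, and in 13 of them the untreated KpCKO level lay more than 2-fold below WT in both cultures. The Con arrays enter both measures, so a count of untreated differences among genes chosen by the response difference is a description too.

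Genes with a weaker induction in KpCKO included a cytokine, a matrix protease and a hyaluronan synthase. *Il1a*, which encodes interleukin-1α, had levels of -6.51 and -6.35 in WT Con and -6.18 and -6.68 in KpCKO Con. It reached 2.31 and 2.62 in WT M1 but -0.56 and -0.81 in KpCKO M1. The genotypes overlapped when untreated and were clearly apart once stimulated. The *Il1a* response difference was -3.15 ± 0.35 (SE, n = 2 cultures, limma adjusted p = 0.0303), and the untreated difference was 0.00 (adjusted p = 0.9995). No genotype difference was thus seen before the stimulus, but these Con levels were low. In a similar range *Il6* was not well above background on 1 WT Con array, so an untreated difference of *Il1a* could be understated. The Con levels of *Has1* and *Ido1*, given below, were similarly low.

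*Mmp13*, which encodes a collagenase, had the most negative called response difference. Its levels were -0.73 and -0.99 in WT Con, -0.38 and -0.41 in KpCKO Con, 6.06 and 6.99 in WT M1, and 2.75 and 3.28 in KpCKO M1. The KpCKO arrays were slightly the higher ones before stimulation and the lower ones after it. *Mmp13* rose by 7.39 in WT and by 3.41 in KpCKO, a response difference of -3.97 ± 0.44 (SE, n = 2 cultures, limma adjusted p = 0.0303). *Has1*, a hyaluronan synthase, was near -6.5 to -6.0 on all 4 Con arrays and reached -1.52 and -0.93 in WT M1 but -5.00 and -3.86 in KpCKO M1. Its response difference was -3.43 ± 0.47 (SE, n = 2 cultures, limma adjusted p = 0.0465).

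Bases upstream of the annotated starts of *Il1a* and *Mmp13* are shown because both hold the AP-1 letters TGANTCA, in capitals, and both genes had a strong response difference. The sequences are RefSeq's, build GRCm38.p6, read 5' to 3' on the strand of the gene, with up to 20 bases on either side of the match. The match begins 12 bases before the start of *Il1a* and 35 bases before that of *Mmp13*. The *Il1a* stretch is chr2:129309973-129310004 on the minus strand and the *Mmp13* stretch is chr9:7272459-7272505 on the plus strand.
Il1a: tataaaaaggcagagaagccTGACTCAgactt
Mmp13: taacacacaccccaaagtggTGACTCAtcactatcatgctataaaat
On either strand, these letters were within the 250 bases upstream of a start in 6 of the 20 called lower genes that had a RefSeq entry (30.0%) and in 1 of the 23 called higher (4.35%). They were there in 7.82% of all 27025 genes with an entry and in 5.74% of the genes tested. Shares differed between the gene lists described below, with 28.6% of chemokines, 21.9% of Nrf2 targets and 0.0% of cell cycle genes among them. A match is a run of letters and not a measured binding site.

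Metabolic genes were among the weaker inductions. *Pfkp*, a phosphofructokinase of glycolysis, rose from 1.01 and 0.95 to 5.44 and 5.52 in WT and from 1.19 and 1.03 to 4.57 and 4.59 in KpCKO. *Bnip3*, a mitophagy gene induced through HIF-1, rose from 2.04 and 1.95 to 4.28 and 4.26 in WT and from 1.74 and 1.61 to 3.1 and 2.98 in KpCKO. In both genes the M1 arrays of each genotype lay close together and the KpCKO ones were lower. The response differences were -1.02 for *Pfkp* and -0.91 for *Bnip3* (limma adjusted p = 0.0364 for each). *Slamf7*, a receptor of activated leukocytes, rose by 4.04 in WT and by 2.63 in KpCKO, a response difference of -1.41 (adjusted p = 0.0306).

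*Vsir* (VISTA, an immune checkpoint receptor) departed from this pattern. Its levels were 4.28 and 4.66 in WT Con, 4.62 and 4.84 in KpCKO Con, 4.01 and 4.47 in WT M1, and 2.72 and 3.11 in KpCKO M1. Only the KpCKO M1 arrays were low. The KpCKO response was -1.82 and the WT response was -0.23, which gave a response difference of -1.59 ± 0.16 (SE, n = 2 cultures, limma adjusted p = 0.0296). *Ndrg1*, a stress-responsive gene, likewise moved apart, with a response of 0.91 in WT and -1.44 in KpCKO.

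Among the 30 genes called higher, the WT response was called down in 24. The KpCKO response was called down in 13, called up in 10 and not called in 7. *Slc43a2*, an amino acid transporter, had levels of 2.15 and 1.97 in WT Con, 2.33 and 2.06 in KpCKO Con, -2.31 and -3.41 in WT M1, and 1.0 and 0.03 in KpCKO M1. The groups overlapped untreated, and the WT level then dropped well below the KpCKO level. *Slc43a2* had the most positive called response difference, 3.24 ± 0.35 (SE, n = 2 cultures, limma adjusted p = 0.0296). *Cebpa*, a transcription factor of the myeloid lineage, went from 3.57 and 3.23 to -1.17 and -1.81 in WT and from 3.96 and 3.44 to 1.96 and 0.67 in KpCKO. It fell in both genotypes, by a smaller amount in KpCKO, and the response difference was 2.51 ± 0.32 (SE, n = 2 cultures, adjusted p = 0.0379). *Metap1d*, a mitochondrial methionine aminopeptidase, had a response of -1.42 in WT and 0.01 in KpCKO.

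*Ezr* was higher in KpCKO M1 cells through a rise that was not called in WT. *Ezr*, which encodes the membrane-cytoskeleton linker ezrin, had levels of 3.27 and 2.68 in WT Con, 3.1 and 2.55 in KpCKO Con, 3.32 and 2.76 in WT M1, and 4.81 and 3.91 in KpCKO M1. The KpCKO M1 array was the highest of its culture in both cultures. The *Ezr* response was 0.07 in WT and 1.53 in KpCKO. *Ddit4l*, an inhibitor of mTOR signalling, fell in WT with a response of -0.93 and rose in KpCKO by 0.64, from an untreated level that was already higher in KpCKO by 1.21. *Sel1l3* had the reverse start, with levels of -1.34 and -0.98 in WT Con, -2.28 and -1.90 in KpCKO Con, -4.14 and -4.45 in WT M1, and -2.28 and -2.47 in KpCKO M1. Stimulation lowered it in WT to below the KpCKO level. Its untreated difference was -0.93 and its M1 difference 1.92, both called.

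**Figure D2:**
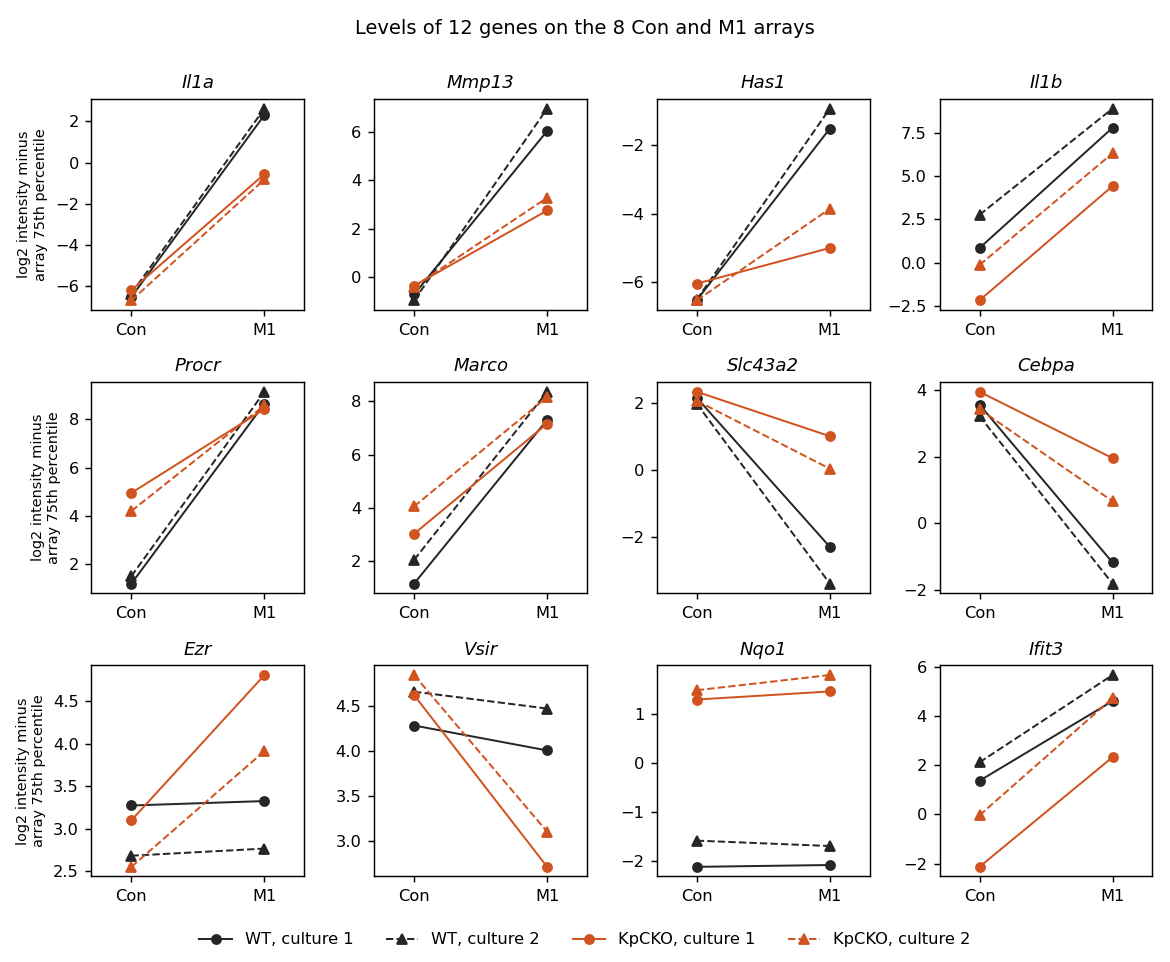
Levels of 12 genes (y axis, log2 intensity relative to the array's 75th percentile) in Con and M1, with 1 line per genotype and culture. *Il1a* separates only after stimulation, *Mmp13* lies slightly higher in KpCKO before it and far lower after it, *Il1b* is separate on both sides, and *Procr* is separate before it and close after it. The y axes differ between panels.

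For some genes an untreated difference was lost on stimulation. *Procr*, the endothelial protein C receptor, had levels of 1.19 and 1.5 in WT Con, 4.95 and 4.20 in KpCKO Con, 8.65 and 9.14 in WT M1, and 8.43 and 8.58 in KpCKO M1. Untreated KpCKO cells were far above WT, and the M1 arrays of both genotypes were close. *Procr* therefore had an untreated difference of 3.23 (limma adjusted p = 0.0033), a response difference of -3.62 ± 0.47 (SE, n = 2 cultures, adjusted p = 0.0401) and an M1 difference of -0.39 (adjusted p = 0.404). A smaller rise in KpCKO was in this gene not a lower stimulated level.

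*Serpinb1b*, a serine protease inhibitor, had the same form. Its levels were -5.20 and -5.05 in WT Con, -2.95 and -3.17 in KpCKO Con, -1.05 and -1.17 in WT M1, and -0.83 and -0.60 in KpCKO M1, with a response difference of -1.66 ± 0.18 (SE, n = 2 cultures, limma adjusted p = 0.0296). *Il7*, a lymphocyte growth factor, had an untreated difference of 1.41 and an M1 difference of 0.03. Of the 27 genes called lower, 9 had a called untreated difference in the opposite direction, and in 6 of those 9 no M1 difference was called. *Marco*, a scavenger receptor and Nrf2 target, was of this form but was not called. Its untreated difference was 1.94, its M1 difference -0.17 and its response difference -2.11 (adjusted p = 0.0663).

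Other genes kept the untreated difference through stimulation. The untreated difference was called for 322 genes higher in KpCKO (1.84%) and 228 lower (1.3%), and the M1 difference for 1768 higher (10.1%) and 2416 lower (13.8%). Under quantile normalization the balance of the M1 calls turned, to 2027 higher and 1629 lower. A carried shift was counted where both were called with the same sign and the 95% interval of the response difference lay within -1 and 1. It was found for 144 higher genes (0.823%) and 113 lower (0.645%). The median size of the difference in these 257 genes was 0.928 untreated and 0.977 in M1. Of the 4184 genes with a called M1 difference, 51 had a changed response by the test, 257 a carried shift and 3876 were in neither class. Genes in neither class are undetermined and not unchanged. Over all genes tested, 11575 (66.1%) had an interval of the response difference within -1 and 1. Without the culture term 62 genes had a carried shift, and 128 when only the 8 arrays were fitted.

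*Il1b*, which encodes interleukin-1β, differed from *Il1a* in this respect. Its levels were 0.85 and 2.76 in WT Con, -2.16 and -0.12 in KpCKO Con, 7.77 and 8.88 in WT M1, and 4.42 and 6.31 in KpCKO M1. Within each culture KpCKO was below WT before and after stimulation by a similar amount, and culture 2 was above culture 1 throughout. The *Il1b* difference was -2.95 untreated and -2.96 in M1, and its response difference was -0.01 with a 95% interval from -0.74 to 0.71 (limma adjusted p = 0.986). The response difference of *Il1a* lay outside that interval in both cultures, at -3.20 in culture 1 and -3.1 in culture 2, although the contrast between both genes was not tested. The Con levels of *Il1a* were also far lower than those of *Il1b*.

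Of the 38 Nrf2 targets tested, 14 had a carried shift. *Nqo1*, a quinone reductase, had levels of -2.11 and -1.58 in WT Con, 1.29 and 1.48 in KpCKO Con, -2.07 and -1.69 in WT M1, and 1.46 and 1.79 in KpCKO M1. The stimulus left both genotypes near where they were. The *Nqo1* response difference was 0.27, with a 95% interval from -0.06 to 0.61. Other genes carried upward were *Acss2*, an acetyl-CoA synthetase (3.46 untreated and 3.36 in M1), *Cd5l*, a secreted macrophage scavenger protein (3.25 and 3.50), the glutathione transferase *Gsta1* (4.88 and 4.94), the channel *Panx1* (2.48 and 2.59) and the Nrf2 target *Pir* (2.40 and 2.99). Carried downward were *Cd300e*, an activating myeloid receptor (-1.97 untreated and -1.79 in M1), *Bmp2*, a growth factor (-1.55 and -1.49), the complement component *C1qa* (-1.43 and -1.15) and *Dab2*, an endocytic adaptor (-1.42 and -1.0).

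**Figure D3:**
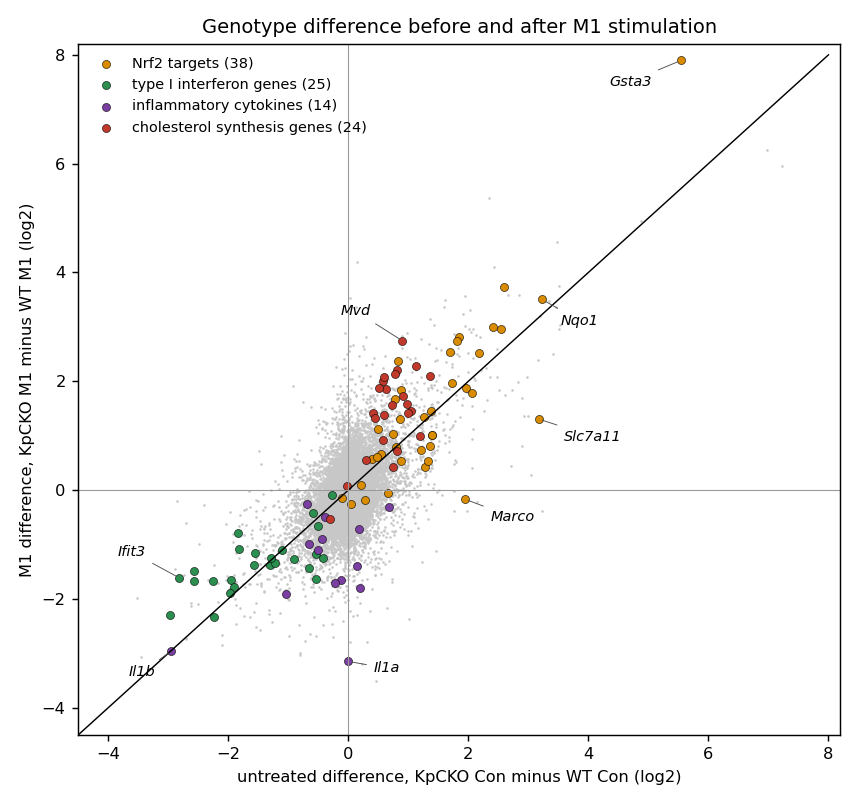
The KpCKO minus WT difference of each gene untreated (x axis) and in M1 (y axis), in log2 units. Coloured points are the members of 4 gene lists, and the diagonal marks equal differences at both times, which is no response difference. *Nqo1* and *Il1b* lie along it, *Il1a* lies below it at an untreated difference near 0, *Marco* lies near an M1 difference of 0, and cholesterol synthesis genes lie mostly above it.

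Lists of related genes were described by their counts and medians beside those of all genes tested. Over all 17507 genes the median response difference was -0.06, and 9930 genes were below 0. Under quantile normalization the median was 0.02, and 8306 genes were below 0. Of the 23 inflammatory cytokine genes listed, 14 were tested and 13 of these had a response difference below 0. The median was -0.89 (-1.09 in culture 1 and -0.73 in culture 2), from a median response of 4.09 in WT and 3.08 in KpCKO. Under quantile normalization 11 were below 0 and the median was -0.64. *Il1a* was the only member called, and 10 of 14 had a called lower M1 difference. *Il12a*, a subunit of interleukin-12, had a response difference of -1.99, and *Il27*, *Osm* and *Tnfsf15*, which encode secreted cytokines, had -1.54, -1.54 and -1.5. These 4 were past 2-fold in both cultures but were not called. *Tnf* had a response of 7.38 in WT and 7.26 in KpCKO, a response difference of -0.12 (95% interval from -1.33 to 1.1). Its levels were 8.12 and 8.2 in WT M1 and 7.72 and 7.59 in KpCKO M1.

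Chemokine genes had response differences in both directions. Of 18 listed, 12 were tested and none was called. Untreated, 11 of the 12 were below 0 in KpCKO minus WT, with a median of -0.90 and 4 called lower, and in M1 all 12 were, with a median of -0.85 and 7 called lower. The attractants *Cxcl10*, *Cxcl1* and *Cxcl2* had response differences of 2.10, 1.64 and 1.15, although their M1 differences were -0.60, -0.02 and -0.67. *Ccl7*, *Ccl3* and the chemokine-binding receptor *Ccrl2* had -1.42, -1.37 and -1.27. All 6 response differences were past 2-fold in both cultures. *Cxcl1*, a neutrophil attractant, went from -3.19 and -2.36 to 1.22 and 1.31 in WT and from -4.77 and -4.08 to 0.90 and 1.59 in KpCKO. The KpCKO arrays started lower and overlapped the WT arrays after stimulation. The list median was 0.26, and -0.20 after normexp background correction. The NF-κB targets and feedback genes, 28 of 29 tested, had a median of -0.33 (-0.10 under quantile normalization) and no call, with 22 below 0 (17 under quantile normalization), and 11 of them had a called lower M1 difference. The Toll-like receptor pathway, 28 of 28 tested, had a median of -0.08 (0.07 under quantile normalization) and none called, and in 22 of its genes the 95% interval lay within -1 and 1.

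Type I interferon genes showed a shift that was present before stimulation. All 25 tested, of 27 listed, were lower in KpCKO on average when untreated and all 25 in M1. The median difference was -1.55 untreated and -1.37 in M1, with 6 and 16 called lower. The median response was 4.30 in WT and 4.19 in KpCKO, the median response difference was 0.13 (-0.14 in culture 1 and 0.38 in culture 2), and none was called. *Ifit1*, an interferon-induced RNA-binding protein, had levels of -0.66 and 0.05 in WT Con, -3.92 and -1.85 in KpCKO Con, 4.80 and 5.47 in WT M1, and 2.28 and 4.66 in KpCKO M1. KpCKO was below WT in each culture under both conditions, by more in culture 1. None of the 25 met the carried shift rule, and in 4 the 95% interval of the response difference lay within -1 and 1, so these genes were not resolved at the precision of 2 cultures. The median response difference of this list was 0.44 under quantile normalization and -0.08 with normexp, so its sign depended on the scaling.

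The start regions of *Ifit3* and *Isg15*, an interferon-induced RNA-binding protein and a ubiquitin-like modifier, are shown because both hold repeated matches to letters found upstream of 9 of the list's genes. Capitals mark matches, on either strand and overlapping in *Isg15*, to GAAANNGAA, the core letters of the interferon-stimulated response element. The stretch for *Ifit3* is chr19:34583354-34583455 on the plus strand and that for *Isg15* is chr4:156200856-156200916 on the minus strand (RefSeq, GRCm38.p6).
Ifit3: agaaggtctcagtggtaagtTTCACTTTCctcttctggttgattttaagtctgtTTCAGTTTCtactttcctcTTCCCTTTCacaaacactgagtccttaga
Isg15: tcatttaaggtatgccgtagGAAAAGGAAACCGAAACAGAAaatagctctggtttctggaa
These letters were within the 250 bases upstream of a start in 9 of the 19 type I interferon genes with an entry (47.4%) and in 8.18% of all genes with one. Among interferon gamma genes the share was similar, 10 of 23 (43.5%). The other motifs searched were the sterol element TCACNCCAC, the NF-κB letters GGGANTTCC and the antioxidant response element core TGANNNNGC, which were in 1.22%, 1.63% and 38.7% of all genes with an entry. The first was upstream of 1 of 16 cholesterol synthesis genes (6.25%), the second of 5 of 25 NF-κB targets (20%) and the third of 16 of 32 Nrf2 targets (50%). *Isg15* went from 0.96 and 1.37 to 7.15 and 7.77 in WT and from -0.83 and 0.01 to 5.24 and 6.94 in KpCKO.

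The interferon gamma genes, 28 of 31 tested, had a median response difference of -0.17 and no call, and the median was above 0 under quantile normalization, at 0.07. *Irf1*, an interferon-induced transcription factor, had a response difference of 0.00 with a 95% interval from -0.82 to 0.81. *Ido1*, which degrades tryptophan, reached -0.35 and 0.84 in WT M1 but -3.33 and -1.75 in KpCKO M1, from -6.51 to -5.88 on the Con arrays. The M1 arrays did not overlap. Its response difference was -2.99 in culture 1 and -3.22 in culture 2 but was not called (adjusted p = 0.108). *Iigp1*, an immunity-related GTPase, had a response difference of 2.65 (adjusted p = 0.265), with levels of 8.56 and 8.56 in WT M1 and 8.28 and 8.42 in KpCKO M1 and an untreated difference of -2.86. For interferon receptors and signalling, 12 of 12 genes were tested, with a median of -0.16 (0.03 under quantile normalization) and none called. *Jak2*, the kinase of the IFNγ receptor, had a response difference of -1.17 and a called M1 difference of -1.21.

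Of the 41 Nrf2 targets listed, 38 were tested. Untreated, 28 were called higher in KpCKO and none lower, and in M1 30 and none. The median difference was 1.31 untreated and 1.21 in M1. None had a called response difference, and the median was 0.10. *Slc7a11*, the cystine transporter, had an untreated difference of 3.17, an M1 difference of 1.3 and a response difference of -1.87 (adjusted p = 0.119). *Gsta3*, a glutathione transferase, had an untreated difference of 5.54 and response differences of 1.18 and 3.52 in cultures 1 and 2, the second read from the dim patch. *Hmox1*, heme oxygenase 1, had a response difference of -0.03, and no genotype difference was called. The 10 genes of the Keap1 pathway had a median of 0.00 and none was called.

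Cholesterol synthesis genes had the highest median response difference of the lists. All 24 were tested, 20 were above 0, the median was 0.80 (0.47 in culture 1 and 1.1 in culture 2) and none was called. The median response was 0.04 in WT and 0.95 in KpCKO. Untreated, 7 were called higher in KpCKO and none lower, and in M1 20 and none. *Mvd*, mevalonate diphosphate decarboxylase, had levels of 0.42 and 0.95 in WT Con, 1.49 and 1.67 in KpCKO Con, -0.68 and -0.83 in WT M1, and 1.72 and 2.27 in KpCKO M1. It fell in WT, whereas the KpCKO response of 0.42 was not called, and the response difference was 1.85 (adjusted p = 0.0553). *Hmgcs1*, HMG-CoA synthase, went from 3.46 and 3.49 to 3.71 and 3.64 in WT and from 4.92 and 4.76 to 5.55 and 5.99 in KpCKO. The sterol reductase *Dhcr7* had a response difference of 1.48, past 2-fold in both cultures.

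Glycolysis and HIF-1 genes had response differences mostly below 0. All 24 were tested, 22 had a response difference below 0, and the median was -0.46 (-0.58 and -0.35 in cultures 1 and 2). Under quantile normalization 17 were below 0 and the median was -0.23. The median response was 1.34 in WT and 0.84 in KpCKO. *Pfkp* and *Bnip3* were called, and 12 of 24 had a called lower M1 difference. The 29 cell cycle genes tested, of 33 listed, had median responses of -1.43 in WT and -1.75 in KpCKO. Their median response difference of -0.52 was -0.10 in culture 1 and -0.73 in culture 2, and none was called. The 16 of 22 IL-4 genes tested had a median of -0.25 and none called.

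**Figure D4:**
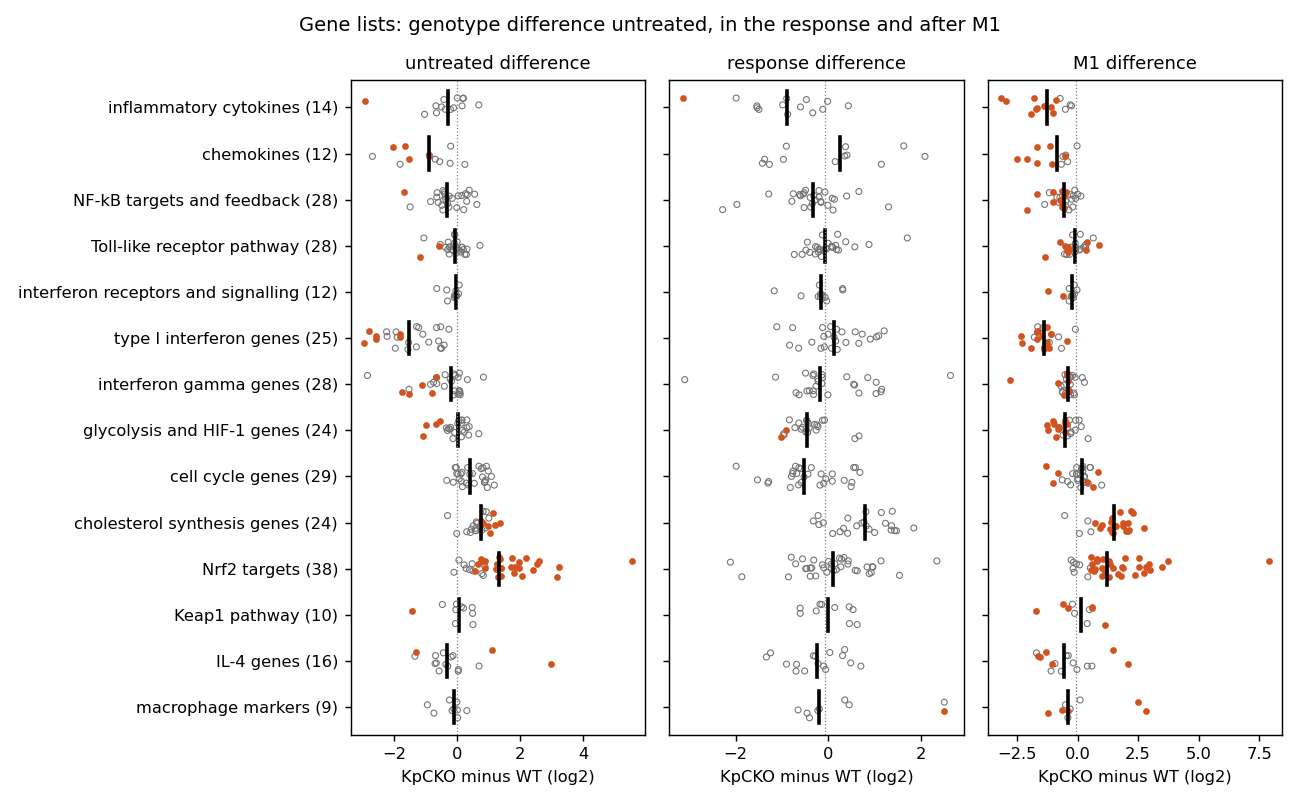
KpCKO minus WT difference (x axis, log2) of each tested member of 14 gene lists (rows), untreated, in the response and in M1, with a bar at each list's median, a dotted line at the median of all genes and filled points for called genes. In the middle panel cholesterol synthesis genes sit mostly above 0 and inflammatory cytokine and glycolysis genes mostly below it, while Nrf2 targets and type I interferon genes are shifted in the outer panels and centred near 0 in the middle one.

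Markers of the cell types that a marrow culture can hold were summed as linear levels relative to the array's 75th percentile, over all markers with a probe, also those not well above background. The 9 macrophage markers with a probe, all tested, summed to 550 to 588 in WT Con, 423 to 463 in KpCKO Con, 670 to 807 in WT M1 and 505 to 568 in KpCKO M1. They were lower in KpCKO under both conditions. *Cebpa* was the only member called. The 7 dendritic cell markers with a probe, of which 4 were tested, summed to 1.70 to 1.72 in WT Con, 8.05 to 15.2 in KpCKO Con, 7.81 to 7.88 in WT M1 and 13.9 to 19.9 in KpCKO M1. *Itgax*, an integrin that some macrophages also express, made up most of this sum in KpCKO Con, where its levels were 3.88 and 2.93. The untreated differences of the other tested members, *Flt3*, *Xcr1* and *Ccr7*, were not called. *Itgax* had an untreated difference of 2.99, an M1 difference of 1.37 and a response difference of -1.62 (adjusted p = 0.157).

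The 14 neutrophil markers with a probe, of which 10 were tested, summed to 12.6 to 25 on the Con arrays and 14 to 20.1 on the M1 arrays, and *Elane* was not well above background on any. The 11 stromal markers, of which 9 were tested, summed to 58.1 to 95.5 in Con, 129 to 140 in WT M1 and less than that on both KpCKO M1 arrays, the lower of which had 88.1. The 10 lymphocyte markers with a probe (4 tested) and the 7 mast cell and basophil markers (3 tested) summed to at most 1.15 and 0.302, and *Ms4a1*, *Mcpt4* and *Ms4a2* were not well above background. No member of these 5 lists was called in the response difference. The part of other cell types in the values above was not tested.

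The cultures differed in how far they set the genotypes apart. The response differences of culture 1 and culture 2 correlated at r = 0.551 across genes, with medians of -0.02 and -0.10. *Fam13a* had 4.13 in culture 1 and 1.91 in culture 2, whereas *Il1a* had -3.20 and -3.1. *Arl11*, read from the patch, had 1.51 in culture 1 and 3.08 in culture 2. Culture, sex of the mice and sample pair cannot be told apart.

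**Figure D5:**
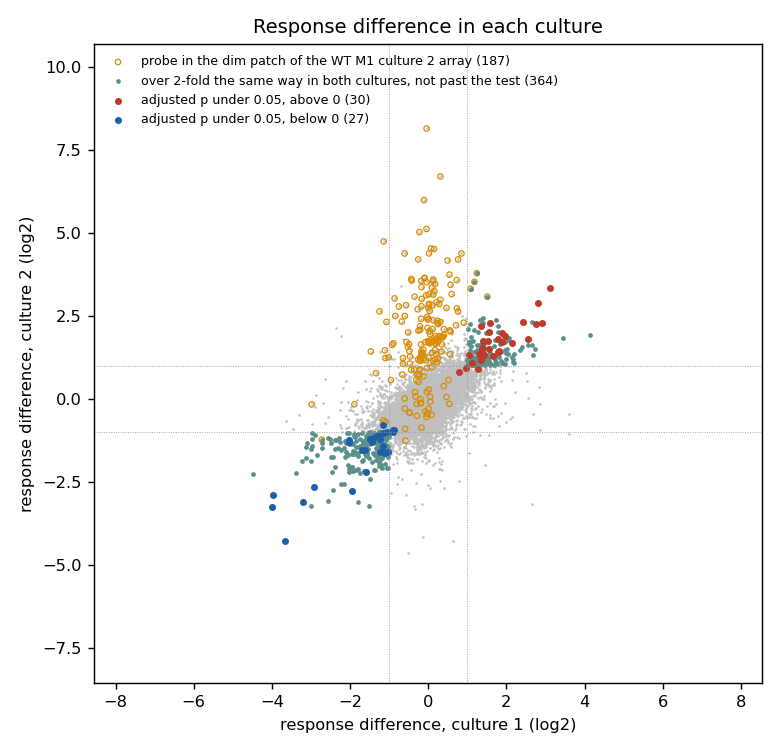
Response difference of each gene in culture 1 (x axis) and culture 2 (y axis), in log2 units, with the 57 called genes, other genes past 2-fold in both cultures, and the 187 genes of the dim patch marked. The called genes lie in the quadrants where both cultures have the same sign, as the test on both cultures favours, and patch genes extend upward in culture 2 alone.

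Genes that were not well above background on all 4 Con arrays had no response difference here. Well above background on all 4 M1 arrays and no Con array were 101 genes, among them *Nos2*, and 494 were so on all 4 Con arrays and no M1 array. For 3 such genes that were well above background on all 4 M1 arrays, the M1 difference was taken from a fit with a filter of at least 1 group in which both arrays passed (22029 genes tested). *Il6*, the cytokine interleukin-6, had levels of 6.66 and 7.89 in WT M1 and 3.18 and 4.96 in KpCKO M1, an M1 difference of -3.21 (limma adjusted p = 0.0095). Its Con levels were -6.39 and -5.39 in WT and -5.65 and -5.66 in KpCKO, well above background on 1 WT array and both KpCKO arrays. The genotypes overlapped when untreated, at levels where an untreated difference could be understated. *Nos2*, inducible nitric oxide synthase, had an M1 difference of -1.5 (adjusted p = 0.0043). The neutrophil attractant *Cxcl3* had one of 2.41 (adjusted p = 0.0201), with Con levels of -7.93 and -6.46 in WT and -6.14 and -6.35 in KpCKO, well above background on 1 WT and both KpCKO arrays. Of the other listed genes of this kind, *Ccl12* was called lower in this fit (-2.90, limma adjusted p = 0.0092). Not called were *Ifnb1* (-1.23, adjusted p = 0.119), *Cxcl5* (1.87, 0.057), *Gbp4* (-0.84, 0.092), *Cxcl9* (-0.47, 0.375), *Ccl22*, *Pdcd1lg2* and *Zbtb46*.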

How the data were processed

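The arrays had 1 colour (Agilent, Cy3). The authors extracted spots with Agilent Feature Extraction 10.7.3.1, per the labels, and deposited background-subtracted intensity per spot with flags. They also deposited a matrix of log2 values, the same intensities less the 75th percentile of the array and centred per probe, which was used as an alternative. Spots marked as outliers were left out and the spots of a probe averaged, and the 75th percentile of log2 intensity over 41174 probes was subtracted on each array. Of these probes, 23359 (56.7%) were well above background on all 8 arrays. A gene was read from its brightest such probe and 26690 probes were named through RefSeq accessions.

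limma 3.58.1 (R 4.3.3) was fitted to all 12 arrays, with 6 groups and culture as a block and 5 residual degrees of freedom, and Benjamini-Hochberg adjustment ran over 17507 genes at 0.05. The sources state that each culture paired the genotypes. Deviations of same-culture arrays from their group means correlated at 0.269 to 0.578 in 6 pairs of groups. The p-values rest on the residual spread of arrays over all 6 groups once the mean culture difference is removed, moderated across genes. Arrays of the same mouse count as independent in this fit, and the number of arrays limits precision. The fit was also run on simulated arrays with known response differences. Their noise was independent between arrays and held no culture effect, so that run does not bear on the reliability of the calls. Genes named were the 10 higher and 10 lower calls with the smallest p, the 10 highest and lowest of the fold rule, the 8 highest and lowest carried shifts, 4 members with the largest response difference and any called member of each list, and 12 genes that the study names. Other names (among them *Ndrg1*, *Il7*, *Hmgcs1*, *Isg15*, *Ifit1* and *Cxcl3*), the sequences and the motifs were chosen after values were seen. The members and lists were chosen with earlier results of these data known. Alternatives changed the scaling, background correction, dim-probe filter, arrays fitted, block, variance model and arrays left out. The probe table gave no match for *Il12b*.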

Additional observations from a re-analysis of the deposited data

Results flagged for a closer look

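The response to M1 stimulation differed between KpCKO and WT by a test of the difference itself (limma, adjusted p under 0.05) for 57 genes. Those with the smallest p among the 30 higher in KpCKO had response differences of 1.57 for *Ddit4l*, 2.85 for *Sel1l3*, 1.93 for *B3gntl1*, 2.60 for AK090207, 1.94 for *Ptchd1*, 1.43 for *Metap1d*, 1.53 for *Mblac2*, 2.18 for *Abhd15*, 1.47 for *Ezr* and 3.24 for *Slc43a2*. Those with the smallest p among the 27 lower had -1.90 for XM_136015, -1.59 for *Vsir*, -1.66 for *Serpinb1b*, -1.18 for *Try5*, -1.22 for the probe A_51_P516033, -3.15 for *Il1a*, -3.97 for *Mmp13*, -1.41 for *Slamf7*, -1.34 for *Sdcbp2* and -1.25 for *Hus1*. All 20 had the same sign in both cultures, which the test on these cultures favours. Groups of 2 arrays are too small for a test of single outlying samples.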

How the results depend on the processing

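The 57 calls of a response difference became 33 under quantile normalization, 25 when genes needed a signal in at least 1 of the 4 groups (17 of them among the 57), 7 without the replicate block for culture, 134 with trended and robust variances (54 of the 57 among them), and 0 after normexp or with the 8 arrays alone. With 1 array left out the calls ran from 0 to 702. There were 0 without either WT Con array (2585 and 1905 under an unadjusted p of 0.05), KpCKO Con replicate 1 (2154) or KpCKO M1 replicate 1 (2465), 1 without KpCKO Con replicate 2 or WT M1 replicate 2, 702 without WT M1 replicate 1 and 148 without KpCKO M1 replicate 2. An unpaired t-test of 2 KpCKO against 2 WT mouse responses had 1833 genes under an unadjusted 0.05 and 0 after adjustment. It takes no account of the pairing by culture, and the study itself counted array genes by fold change. Leaving out the patch genes, an alternative chosen after the data were seen, gave 59.

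The fold rule's 170 higher genes became 65 with normexp and 291 with the filter on 1 group, and its 243 lower became 473 with that filter. With single arrays left out, so that 1 culture decides, they were 486 to 508 and 619 to 722. The 550 untreated calls became 259 with normexp, 289 with the 8 arrays alone and 196 without the block, and 123 to 612 with 1 array left out. The 4184 M1 calls became 1725, 2441 and 1388, and 1183 to 4176. The 257 carried shifts became 122, 128 and 62, and 48 to 222. The share of response calls that were higher was 52.6% and became 69.7% under quantile normalization. For the fold rule it was 41.2%, then 52.0%, and 27.9% with normexp, and for the M1 difference 42.3%, then 55.4%. No gene named by rule was counted as reversed under any alternative, but of 2513 results of these 126 genes 253 were weaker and 29 stronger. Rules that choose large differences in both cultures favour an unchanged sign. A response difference near 0, such as -0.01 for *Il1b*, has no firm sign to reverse. The causes were not tested.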

Other observations

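Some genes with a called response difference belonged to no list. *Rhob*, a small GTPase of the endosome, had a response of -1.24 in WT and 0.70 in KpCKO, with a response difference of 1.94. *Pcyt2*, an enzyme of phosphatidylethanolamine synthesis, had a response of -1.17 in WT and -0.06 in KpCKO (response difference 1.11). *Akap6*, an anchoring protein for protein kinase A, rose by 1.93 in KpCKO, with a WT response of 0.16 and an untreated difference of 1.60 already in place. *Mthfd1l*, a mitochondrial folate enzyme, rose by 1.26 in WT and 0.34 in KpCKO, and *Acot7*, an acyl-CoA thioesterase, by 2.07 and 1.11. *Cracdl* had an untreated difference of 3.05 and an M1 difference of 0.27. *Mtfr2*, a mitochondrial fission regulator, had a called untreated difference of 1.77 that was still called in M1 at 0.48. *Kctd7* was called at 1.37 (adjusted p = 0.049994), but its other probe had a response difference of 0.162, and it was the only called or named gene whose probes were more than 1 apart.

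Several induced genes had a strongly negative response difference in each culture without being called. *Edn1*, which encodes endothelin 1, had response differences of -4.49 in culture 1 and -2.26 in culture 2 (limma adjusted p = 0.179). *Fst*, the activin antagonist follistatin, had -2.56 and -3.07 (adjusted p = 0.230), and *Cd200*, an inhibitory ligand of myeloid cells, had -3.38 and -2.22 (adjusted p = 0.127). *Lpin1*, a phosphatidate phosphatase, had a weaker fall, with a response of -5.36 in WT and -2.88 in KpCKO (adjusted p = 0.0518). *Rhob*, *Pcyt2*, *Akap6*, *Mthfd1l*, *Acot7*, *Mtfr2* and *Kctd7* were chosen after their values were seen.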
